A study of Mus musculus with 4 samples.

Results

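The genes described here encode the channels that carry potassium, sodium and calcium across the plasma membrane, together with the sodium leak channel and the subunits that assemble with these pores. They were chosen by name among the protein-coding rows of the deposited table: potassium channel subunits (Kcn), voltage-gated sodium channel subunits (Scn), voltage-gated calcium channel subunits (Cacna, Cacnb and Cacng), the pacemaker channels Hcn, and Nalcn with its partners Unc79 and Unc80. The rule gave 140 of 22046 protein-coding genes. Of these, 104 had 10 or more counts in at least 2 libraries and are reported, and 103 passed the filter of the test. The exception was Scn4a, the skeletal muscle sodium channel gene, with 4 and 10 counts after dexamethasone and 6 and 12 after PBS. Of the other 36 genes, 31 had at least 1 count, and no library gave any of them more than 21 (the retinal calcium channel gene Cacna1f is among them).

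The RNA was that of the entire right adrenal of C57BL/6 mice, all of them adult males, taken 1 h after 1 intraperitoneal injection. The dexamethasone group (5 mice, 10 µg of this synthetic glucocorticoid each) was set against a PBS group (5 mice, vehicle). Glands were combined, 2 to 1 library and 3 to the other in each group, so n = 2 libraries per group, and the labels do not tell which replicate is the larger pool. The tests therefore measure variation among pools and not among single animals. Total counts ran from 21904510 to 26948588 per library. All 11 lists of cell type markers had transcripts, with no listed gene at 0 in every library: 17 chromaffin markers summed to 14009 and 10934 CPM (counts relative to library size, corrected by TMM factors) in dexamethasone replicates 1 and 2, against 9310 and 13815 CPM in PBS replicates 1 and 2. For 6 markers of the zona fasciculata the sums were 14148 and 14045 CPM after dexamethasone, against 13427 and 14330 CPM after PBS.

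Steroid-producing cells and chromaffin cells are both electrically excitable. In the zona glomerulosa, potassium leak channels of the two-pore-domain family hold the membrane near the potassium equilibrium, and angiotensin II or potassium depolarises it, which opens voltage-gated calcium channels and drives aldosterone synthesis. In bovine fasciculata cells a leak channel encoded by the counterpart of Kcnk2 sets the resting potential and is inhibited by corticotropin. Chromaffin cells of the medulla fire action potentials through sodium, calcium and potassium channels and release catecholamines when calcium enters, and NALCN carries the background sodium current that brings many neurons closer to firing.

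The promoters below belong to the 3 genes of the sodium leak complex, all of which rose, and to Kcna5, whose window was the only one among the changed genes with a match to the core of a glucocorticoid receptor element. Each is the 250 bases before the RefSeq start on GRCm38.p6 (for Unc80 and Kcna5 this start lies upstream of the deposited one), written 5′ to 3′ on the gene's strand. Capitals mark matches to that core, ACANNNTGT, or to AGAACA, the hexamer that begins such an element, searched on both strands; a full element holds both, so the motifs can overlap.
Unc80 (chr1:66467684-66467933, plus strand): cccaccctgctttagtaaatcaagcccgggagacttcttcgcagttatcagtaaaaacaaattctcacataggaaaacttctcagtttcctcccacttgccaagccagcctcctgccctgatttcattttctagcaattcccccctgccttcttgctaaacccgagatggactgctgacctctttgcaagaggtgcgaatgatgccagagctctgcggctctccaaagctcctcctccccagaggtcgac
Unc79 (chr12:102948609-102948858, plus strand): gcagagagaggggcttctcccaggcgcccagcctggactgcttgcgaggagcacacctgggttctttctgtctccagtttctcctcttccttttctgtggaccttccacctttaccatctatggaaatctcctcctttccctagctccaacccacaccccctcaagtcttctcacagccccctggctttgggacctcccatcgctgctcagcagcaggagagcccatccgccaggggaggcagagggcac
Nalcn (chr14:123627145-123627394, minus strand): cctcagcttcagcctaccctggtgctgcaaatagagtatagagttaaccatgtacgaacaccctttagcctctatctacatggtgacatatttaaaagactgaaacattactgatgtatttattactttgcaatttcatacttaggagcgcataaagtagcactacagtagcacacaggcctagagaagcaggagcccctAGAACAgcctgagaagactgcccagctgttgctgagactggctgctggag
Kcna5 (chr6:126535556-126535805, minus strand): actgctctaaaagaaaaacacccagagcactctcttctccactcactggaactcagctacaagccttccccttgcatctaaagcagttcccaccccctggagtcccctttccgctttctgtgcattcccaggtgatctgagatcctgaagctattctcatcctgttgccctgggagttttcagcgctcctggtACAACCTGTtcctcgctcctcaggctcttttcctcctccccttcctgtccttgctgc
In these windows the hexamer of Nalcn began 50 bases before the start and the core match of Kcna5 began 57 bases before it, while those of Unc80 and Unc79 held neither motif. RefSeq windows were matched for 11 of the 18 genes that changed, 16 windows in all because some genes have several starts. The core was in 6.25% of these windows and in 5.84% of all 32851 windows. The hexamer was in 31.2% of them (Cacna1d, Kcnj6, Kcnk2, Nalcn and Scn9a), against 16.1% of all windows and 13.9% of the 101 windows of the reported channel genes. TGACG, part of a cAMP response element, was in 6.25% of the windows of changed genes and in 17.8% of all windows.

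After dexamethasone 17 of the 103 channel genes tested were higher and 1 was lower (edgeR quasi-likelihood test, Benjamini-Hochberg adjusted p under 0.05 over all genes). That is 16.5% higher, where 3.26% of all 16027 genes tested were called higher, and 0.971% lower, where 1.37% were. Among protein-coding genes tested 3.48% were called higher and 1.44% lower. The genes that rose were Unc80, Unc79 and Nalcn of the sodium leak complex, the sodium channel genes Scn3a and Scn9a, the calcium channel genes Cacna1b and Cacna1d, and 10 potassium channel genes. The median log2 fold change of the 103 genes was 0.42, beside 0.01 over all genes tested and 0.01 over protein-coding ones. Without dexamethasone replicate 2 the number higher was 9, all of them among the 17, and over all genes it was 337. The number of channel genes lower was 4 without PBS replicate 1, where 1747 of all genes were lower, and 0 without any other single library, where 147 to 783 were. Scaled by library totals alone, 893 genes of the whole table were higher and 180 lower, where TMM factors gave 523 and 219; for channel genes these were 22 and 0, and 17 and 1. In bulk RNA a change in the number of cells of a type and a change of RNA per cell cannot be told apart.

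The counts were also read beside gene length. Fold changes of protein-coding genes ran with the listed gene length, at r = 0.392 across 14249 genes (genes are not independent replicates), and channel genes are long, with a median length of 5407 bases against 4412 for protein-coding genes tested. The slope of log2 CPM on log2 length, taken on deviations from each gene's mean, was 0.0343 and 0.175 in dexamethasone replicates 1 and 2, against −0.0562 and −0.154 in PBS replicates 1 and 2. All 4 libraries differed in it, the replicates of a group included. The slope was above 0 in both dexamethasone libraries and below 0 in both PBS libraries. Removing the trend can therefore also remove change that goes with treatment. The cause of the trend was not tested. The listed length equalled the summed exon bases of GENCODE M21 for 102 of the 104 reported genes. With the trend of log2 CPM on log2 length removed from each library, 9 channel genes were higher (8.74%, where 2.07% of all genes and 2.13% of protein-coding ones were) and their median log2 fold change was 0.25, beside −0.01 over all genes. Those 9 were Unc80, Scn3a, Kcna5, Kcnj11, Kcnj12, Kcnk2, Kcnk6, Kcnq3 and Cacna1b, all among the 17. With the trend left in, limma-voom called 0 of 103 channel genes lower, where 215 of all genes were. DESeq2 called 3 lower of 86 channel genes with a value, where 868 of all genes were. With the trend removed edgeR called 0 channel genes lower (1.27% of all genes were). At an unadjusted p under 0.05 edgeR had 7 lower in that fit, where 2075 of all 16027 genes tested were. When 1 library was left out as well, the number higher was 2 and 1 on leaving out dexamethasone replicates 1 and 2, and 17 and 14 on leaving out PBS replicates 1 and 2. Unc80 was called each time.

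Among genes of 10 kb and over, 9 of 23 channel genes were higher (39.1%) and 12.2% of protein-coding genes of that length. With the trend removed these were 3 of 23 (13%) and 3.28%. Among genes under 3 kb, where protein-coding genes had a median log2 fold change of −0.28 and 1.03% were higher, 2 of 16 channel genes were higher (12.5%). These were Kcna5 and Kcnj12, and both passed with the trend removed too.

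**Figure D1:**
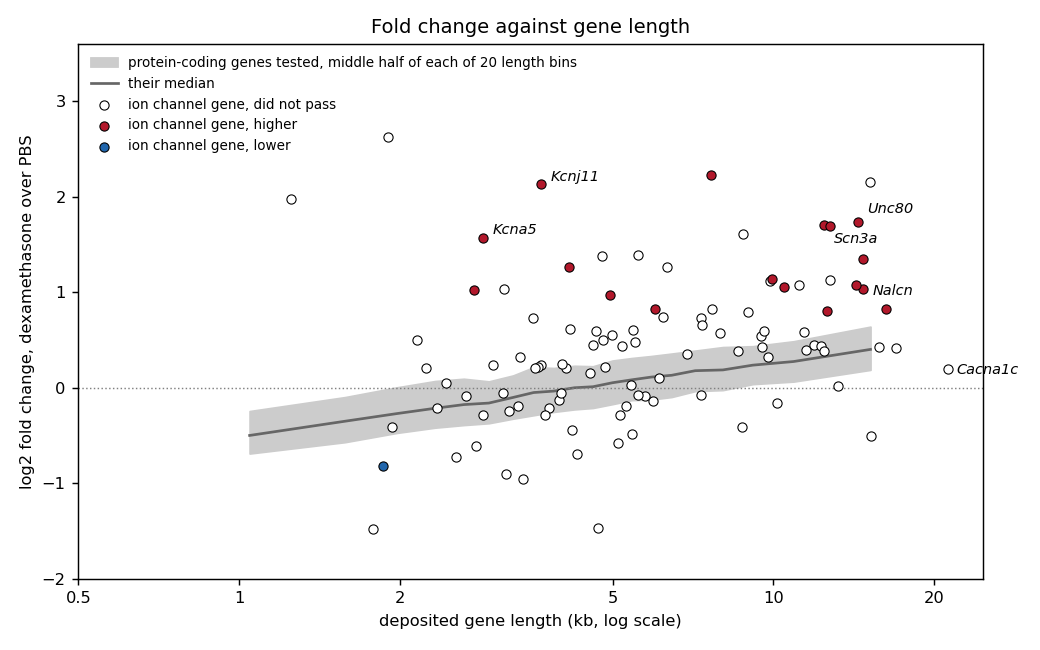
Log2 fold change, dexamethasone over PBS (y axis), against the deposited gene length in kb (x axis, log scale) for 103 ion channel genes (points: red higher, blue lower, white did not pass); the grey line and band are the median and the interquartile range of protein-coding genes in 20 length bins. The band climbs with length, and Unc80 and Scn3a at the long end and Kcna5 and Kcnj11 at the shorter end lie above it.

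Both dexamethasone libraries were above both PBS libraries for 57 of 103 channel genes (55.3%, where 30.8% of all genes were) and below both for 12 (11.7%, where 29.7% were). The remaining 34 overlapped. These comparisons used CPM with the length trend left in.

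Potassium leak channels made up most of the channel RNA. Kcnk3 and Kcnk9, which encode acid-sensitive leak channels of the two-pore-domain family, held 60.9% and 64.3% of all channel gene counts in dexamethasone replicates 1 and 2, against 67.4% and 68.8% in PBS replicates 1 and 2. Scaled per kb of gene length, Kcnk3 stood at 702 and 867 CPM per kb after dexamethasone, against 886 and 825 CPM per kb after PBS, and was first of 104. Kcnk9 was second, at 62.7 and 77.9 CPM per kb after dexamethasone, against 50.3 and 53.6 CPM per kb after PBS. The order of levels then ran through Cacna1h, Cacna2d1, Kcnk1 and Kcnn2, at means over the 4 libraries of 32.9, 29.1, 23.7 and 20.7 CPM per kb. The library ranges of each of these 4 overlapped those of its neighbour, so their order is not firm, while Kcnk3 and Kcnk9 lay apart from each other and from the rest.

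**Figure D2:**
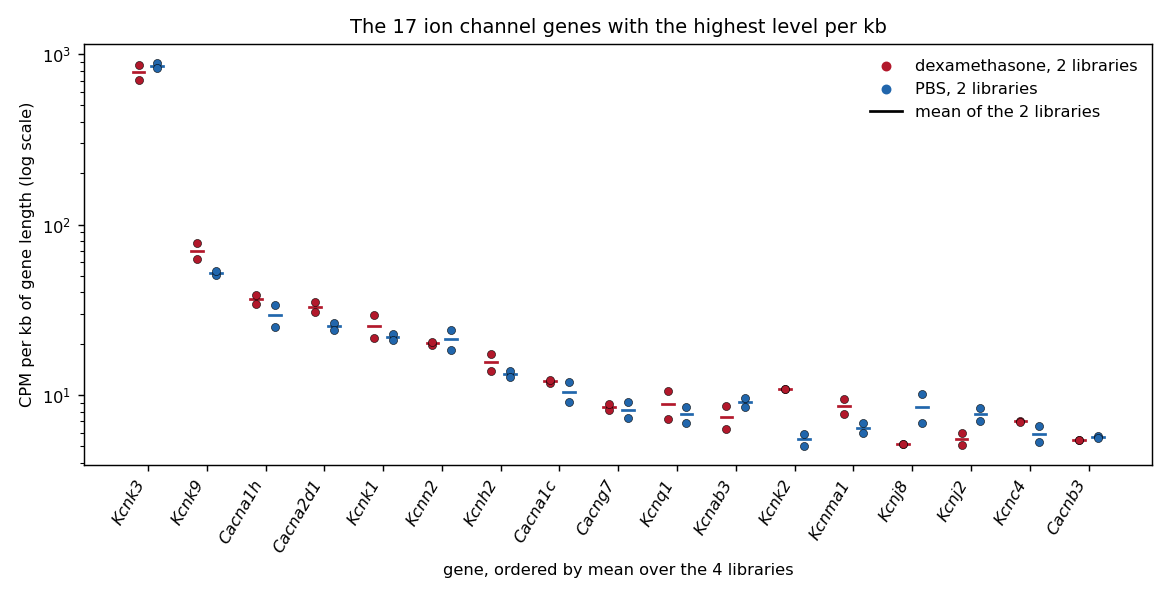
Level of the 17 ion channel genes with the highest mean, in CPM per kb of gene length (y axis, log scale), in the dexamethasone libraries (red, left) and the PBS libraries (blue, right), with the mean of each pair as a bar. Kcnk3 stands between 702 and 886 CPM per kb in the 4 libraries, and Kcnk9 between 50.3 and 77.9.

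Neither of these leading leak channel genes passed the test. The log2 fold change of Kcnk3 was −0.13 ± 0.16 (SE, n = 2 libraries per group; edgeR adjusted p = 0.65), and 0.01 without dexamethasone replicate 1. Kcnk9 had 0.44 ± 0.16 (edgeR adjusted p = 0.124) and 0.08 ± 0.14 with the length trend removed, and passed with no filter (edgeR adjusted p = 0.0436); its dexamethasone libraries lay above its PBS libraries. Kcnk1, a weakly conducting member of the family, had 0.21 ± 0.17 (edgeR adjusted p = 0.449). A p that misses the threshold does not show that their levels were equal.

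Of 8 two-pore-domain genes tested 2 rose and 6 did not pass (median log2 fold change 0.08, and 0.05 with the length trend removed). Kcnk2, whose channel is gated by stretch, lipids and cAMP signalling, stood at 53.2 and 53.1 CPM in the dexamethasone libraries, against 25 and 29.3 CPM in the PBS libraries. The dexamethasone libraries were nearly equal and lay well above both PBS libraries, a 1.96-fold rise (log2 fold change 0.97 ± 0.15, SE; edgeR adjusted p = 0.0118), and it held with the length trend removed (0.91 ± 0.13; edgeR adjusted p = 0.0152). Exons of an antisense gene, A430027H14Rik, cover 12.2% of the exon bases of Kcnk2, and whether counting used strand is not given in the sources used here. Kcnk6, the gene of a weakly rectifying member of the family, stood at 10.2 and 8.29 CPM after dexamethasone, against 4.37 and 3.27 CPM after PBS. Its 2.41-fold rise (1.27 ± 0.24; edgeR adjusted p = 0.0258) was alike with the length trend removed (1.25 ± 0.23). Kcnk5, an alkaline-activated leak channel gene picked after its values were seen, had the opposite sign, at 5.02 and 4.94 CPM after dexamethasone, against 7.72 and 11.7 CPM after PBS. It did not pass (−0.96 ± 0.25; edgeR adjusted p = 0.0606), but was among the genes called lower by DESeq2, with no filter and without PBS replicate 1.

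All 3 genes of the sodium leak channel complex in the set rose with the trend left in. NALCN is the pore, UNC80 is a large scaffold that binds it, and UNC79 joins through UNC80. Unc80 (ENSMUSG00000055567, GRCm38 chromosome 1, 66468367 to 66699148) stood at 51.1 and 53.6 CPM in the dexamethasone libraries, against 15.8 and 15.5 CPM in the PBS libraries. The replicates of each group nearly coincided and the gap between groups was 3.34-fold (log2 fold change 1.74 ± 0.15, SE, n = 2 libraries per group; edgeR adjusted p = 0.00426). With the length trend removed it was 2.55-fold (1.35 ± 0.13; edgeR adjusted p = 0.00487). Nalcn (ENSMUSG00000000197, chromosome 14, 123276634 to 123627144) stood at 25.1 and 27.5 CPM after dexamethasone, against 12.0 and 13.8 CPM after PBS. Unc79 (ENSMUSG00000021198, chromosome 12, 102948859 to 103184065) stood at 20 and 16.9 CPM after dexamethasone, against 9.41 and 8.03 CPM after PBS. For both, all dexamethasone libraries were above all PBS libraries and the rise was about as large, 2.04-fold for Nalcn (1.03 ± 0.17; edgeR adjusted p = 0.0142) and 2.11-fold for Unc79 (1.08 ± 0.19; edgeR adjusted p = 0.0192). With the length trend removed neither passed, at 0.63 ± 0.17 for Nalcn (edgeR adjusted p = 0.0773) and 0.71 ± 0.19 for Unc79 (edgeR adjusted p = 0.0792). Fam155a, the gene of a further subunit of the channel, had 0.41 ± 0.21 (edgeR adjusted p = 0.23) and did not pass. Without each library in turn and with the trend left in, the ranges were 1.71 to 1.77 for Unc80, 0.91 to 1.12 for Nalcn and 0.95 to 1.20 for Unc79. With the trend removed as well they were 1.29 to 1.42, 0.45 to 0.82 and 0.48 to 0.91.

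Sodium channel genes gave 2 that rose and 1 that fell among 11 tested. With the length trend removed these were 1 and 0. The median log2 fold change was 0.66 (0.54 with the length trend removed), with 10 of 11 above 0 with the trend left in. Scn3a (ENSMUSG00000057182, chromosome 2, 65457118 to 65567627), a pore gene that is expressed in chromaffin cells, stood at 14.6 and 15.6 CPM in the dexamethasone libraries, against 4.86 and 4.42 CPM in the PBS libraries. The groups were far apart and the replicates close, a 3.25-fold rise (1.70 ± 0.19; edgeR adjusted p = 0.00543), which held with the length trend removed (1.36 ± 0.18; edgeR adjusted p = 0.0111). Scn9a, the pore gene known from human pain disorders and also found in chromaffin cells, stood at 2.27 and 3.53 CPM after dexamethasone, against 0.791 and 1.01 CPM after PBS. Its rise (1.69 ± 0.38; edgeR adjusted p = 0.0441) did not pass without dexamethasone replicate 2 (1.34) or with the length trend removed (1.33 ± 0.37; edgeR adjusted p = 0.085).

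Scn3a and Scn9a lie with Scn2a, Scn1a and Scn7a in 1 cluster of pore genes on chromosome 2, between 65457118 and 66784914. In the main edgeR test the other members of the cluster did not pass. Scn7a, which encodes a sodium sensor rather than a voltage-gated channel, stood at 21.7 and 22.5 CPM after dexamethasone, against 15.2 and 12.6 CPM after PBS, so that its groups did not overlap (0.66 ± 0.17; edgeR adjusted p = 0.0601). It passed with library totals (0.75), with no filter (0.66), by DESeq2 (0.65) and without PBS replicate 1 (0.78; 0.58 with the trend removed). Scn2a and Scn1a, neuronal pore genes given here as neighbours, had few counts and wide errors. Scn2a had 36 and 52 counts after dexamethasone and 28 and 8 after PBS (1.13 ± 0.51, edgeR adjusted p = 0.189). Scn1a had 10 and 14 counts after dexamethasone and 9 and 1 after PBS (1.08 ± 0.76, edgeR adjusted p = 0.385). Scn2b, the gene of an auxiliary beta subunit that adjusts gating and adhesion, did not pass (0.59 ± 0.16; edgeR adjusted p = 0.0643). It was called higher with library totals (0.68), with no filter (0.59), by DESeq2 (0.58) and without PBS replicate 1 (0.61; 0.57 with the trend removed).

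Voltage-gated potassium channel pore genes rose in 4 of 28 cases, with a median log2 fold change of 0.42 (0.29 with the length trend removed). Kcnq3 encodes a subunit of the M current, a slow potassium current that muscarinic receptors shut and that restrains repetitive firing. Kcnq3 stood at 18.8 and 16.9 CPM in the dexamethasone libraries, against 6.55 and 7.45 CPM in the PBS libraries. It was 2.55-fold higher (1.35 ± 0.18; edgeR adjusted p = 0.00802) and passed with the length trend removed (0.96 ± 0.20; edgeR adjusted p = 0.0434). Kcna5, the gene of an ultrarapid delayed rectifier of muscle and vessels, stood at 5.40 and 5.82 CPM after dexamethasone, against 1.54 and 2.26 CPM after PBS. At 2862 bases it is short for a channel gene, and its 2.97-fold rise (1.57 ± 0.29; edgeR adjusted p = 0.0229) was 3.19-fold with the length trend removed.

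The more abundant pore genes of this class did not pass. Kcnh2, the gene of the rapid delayed rectifier of the heart, led at 66.8 and 84.0 CPM after dexamethasone, against 67.5 and 62.2 CPM after PBS, with overlapping groups (0.22 ± 0.16; edgeR adjusted p = 0.394). Kcnq1, which pairs with Kcne subunits in heart and epithelia, had 0.21 ± 0.21 (edgeR adjusted p = 0.55). Of 8 auxiliary subunit genes of potassium channels tested by edgeR 0 passed. At an unadjusted p under 0.05 edgeR had 2 higher and 1 lower, where 2297 and 2106 of all 16027 genes tested were. DESeq2 called 1 higher and limma-voom 0. That 1 was Kcnip3, a calcium-binding protein gene (0.73 ± 0.19; edgeR adjusted p = 0.0585), which also passed with library totals (0.83), with no filter (0.73) and without PBS replicate 2 (0.90). Kcnab3 and Kcne4 had −0.29 and −0.09.

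Inward rectifier genes, whose channels hold the resting potential, differed in direction. Of 11 genes tested 3 rose and 8 did not pass, with a median log2 fold change of 0.44 (0.36 with the length trend removed) and a range of −1.47 to 2.23. Kcnj11, the pore gene of the ATP-sensitive potassium channel of pancreatic beta cells, stood at 3.16 and 5.49 CPM in the dexamethasone libraries, against 1.05 and 0.913 CPM in the PBS libraries. The dexamethasone libraries differed from each other but both exceeded the PBS libraries, a 4.36-fold rise (2.13 ± 0.37; edgeR adjusted p = 0.0197) that was 4.46-fold with the length trend removed and did not pass without dexamethasone replicate 2 (1.68). Kcnj8, the pore gene of the vascular form of that channel, stood at 13.2 CPM in both dexamethasone libraries, against 17.4 and 26.1 CPM in the PBS libraries. It did not pass (−0.72 ± 0.21; edgeR adjusted p = 0.0781). It was called lower with no filter (−0.71), by DESeq2 (−0.73) and without PBS replicate 1 (−1; −0.81 with the trend removed). These channels need a sulphonylurea receptor subunit, whose genes were looked at after the channel values were seen. Abcc9 stood at 47.5 and 57.6 CPM after dexamethasone, against 26.9 and 21.7 CPM after PBS, and rose (1.11 ± 0.17; edgeR adjusted p = 0.0119; 0.89 with the length trend removed), while Abcc8 had 0.48 ± 0.36 (edgeR adjusted p = 0.419).

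Kcnj12, a strong inward rectifier gene, stood at 10.1 and 10.5 CPM after dexamethasone, against 4.90 and 5.29 CPM after PBS. The replicates were close and the rise was 2.03-fold (1.02 ± 0.20; edgeR adjusted p = 0.0277) and 2.20-fold with the length trend removed, though it did not pass without dexamethasone replicate 2 (0.99). Kcnj2, the gene of the other main strong inward rectifier, had the opposite sign, at 27.6 and 32.7 CPM after dexamethasone, against 38.5 and 45.8 CPM after PBS. It did not pass (−0.48 ± 0.16; edgeR adjusted p = 0.104), but was called lower without PBS replicate 1 (−0.62; −0.71 with the trend removed). The G protein-gated genes Kcnj6 and Kcnj5 were both low. Kcnj6 had 27 and 34 counts after dexamethasone and 5 and 6 after PBS; its rise (2.23 ± 0.53; edgeR adjusted p = 0.049) did not pass with any of the 4 libraries left out (2.37 and 2.07 for the dexamethasone libraries, 1.92 and 2.53 for the PBS libraries) or with the length trend removed (2.04 ± 0.53). Kcnj5, mutated in human aldosterone-producing adenomas, had 7 and 11 counts after dexamethasone and 26 and 18 after PBS, and did not pass (−1.47 ± 0.51; edgeR adjusted p = 0.109).

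Among 11 potassium channel genes gated by calcium or sodium, 1 rose, with a median log2 fold change of 0.35 and of −0.02 with the length trend removed. Kcnn3, the gene of a small-conductance channel that follows calcium entry, stood at 10.6 and 12.2 CPM in the dexamethasone libraries, against 6.51 and 4.37 CPM in the PBS libraries. The rise was 2.08-fold (1.06 ± 0.24; edgeR adjusted p = 0.0424) and did not pass without dexamethasone replicate 2 (0.96) or with the length trend removed (0.77 ± 0.21). Kcnn2, its more abundant relative, stood at 144 and 150 CPM after dexamethasone, against 176 and 135 CPM after PBS, with overlapping groups (−0.08 ± 0.16; edgeR adjusted p = 0.784). Kcnma1, the large-conductance channel gene, had 0.42 ± 0.16 (edgeR adjusted p = 0.125), and −0.02 ± 0.11 with the length trend removed. Kcnt1, a sodium-activated channel gene, had 0.43 ± 0.17 (edgeR adjusted p = 0.154).

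Calcium channel genes gave 2 that rose among 20 tested, with a median log2 fold change of 0.26 (0.16 with the length trend removed). Cacna1b, the pore gene of N-type channels that trigger transmitter and catecholamine release, stood at 13.7 and 15.2 CPM in the dexamethasone libraries, against 6.74 and 6.34 CPM in the PBS libraries. It was 2.20-fold higher (1.14 ± 0.19; edgeR adjusted p = 0.015) and passed with the length trend removed (0.86 ± 0.17; edgeR adjusted p = 0.035). Cacna1d, an L-type pore gene that opens at low voltage and is mutated in some human aldosterone-producing adenomas, stood at 43.2 and 54.4 CPM after dexamethasone, against 27.7 and 28.4 CPM after PBS. Its groups did not overlap and it was called higher (0.80 ± 0.16; edgeR adjusted p = 0.0303), but did not pass without dexamethasone replicate 2 (0.62) or with the length trend removed (0.44 ± 0.13; edgeR adjusted p = 0.0992).

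The calcium channel genes with the highest levels did not pass. Cacna1h, the T-type pore gene of glomerulosa cells, stood at 379 and 335 CPM after dexamethasone, against 328 and 244 CPM after PBS (0.32 ± 0.18; edgeR adjusted p = 0.274). The auxiliary gene Cacna2d1, whose product brings pore subunits to the membrane, had 0.38 ± 0.15 (edgeR adjusted p = 0.141) and 0.04 with the length trend removed. Cacna1c, the L-type pore gene of heart and smooth muscle and with 21191 bases the longest gene of the set, had 0.20 ± 0.17 (edgeR adjusted p = 0.456), and −0.29 ± 0.13 with the length trend removed. Of the pacemaker channel genes, which open on hyperpolarisation and bind cAMP, edgeR called 0 of 3 tested, with 0 at an unadjusted p under 0.05, 0 by DESeq2 and 0 by limma-voom; Hcn2, Hcn3 and Hcn4 had −0.24, 0.62 and 0.10.

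**Figure D3:**
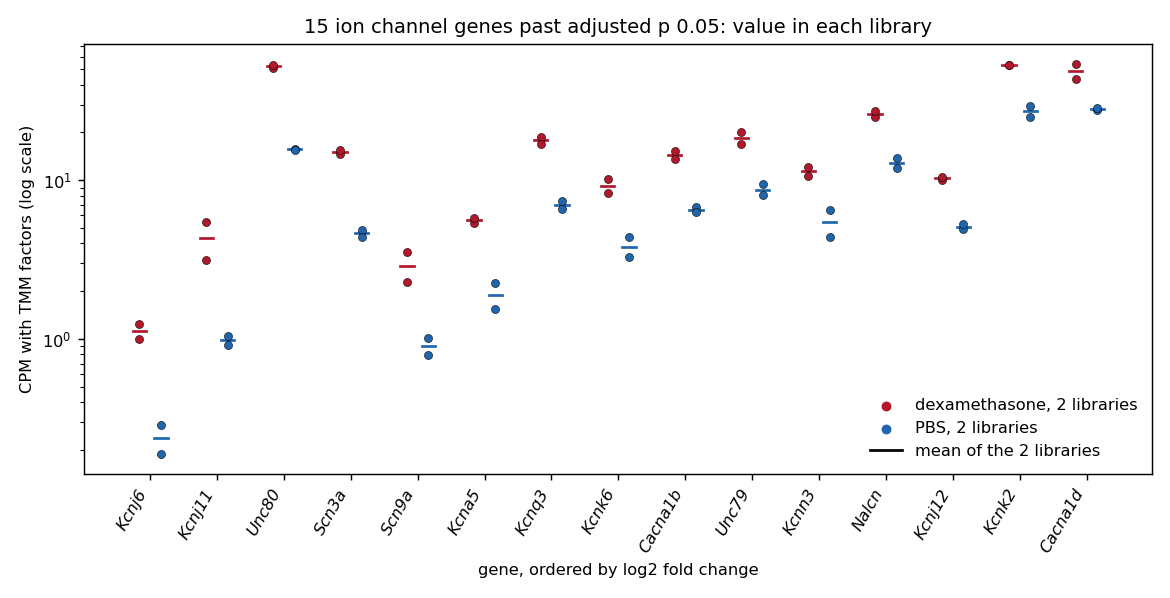
CPM with TMM factors (y axis, log scale) of 15 of the 18 ion channel genes past an adjusted p of 0.05 in each dexamethasone library (red, left) and PBS library (blue, right), with the mean of each pair as a bar; genes run by log2 fold change. In each of the 15 genes both red points lie above both blue points.

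**Figure D4:**
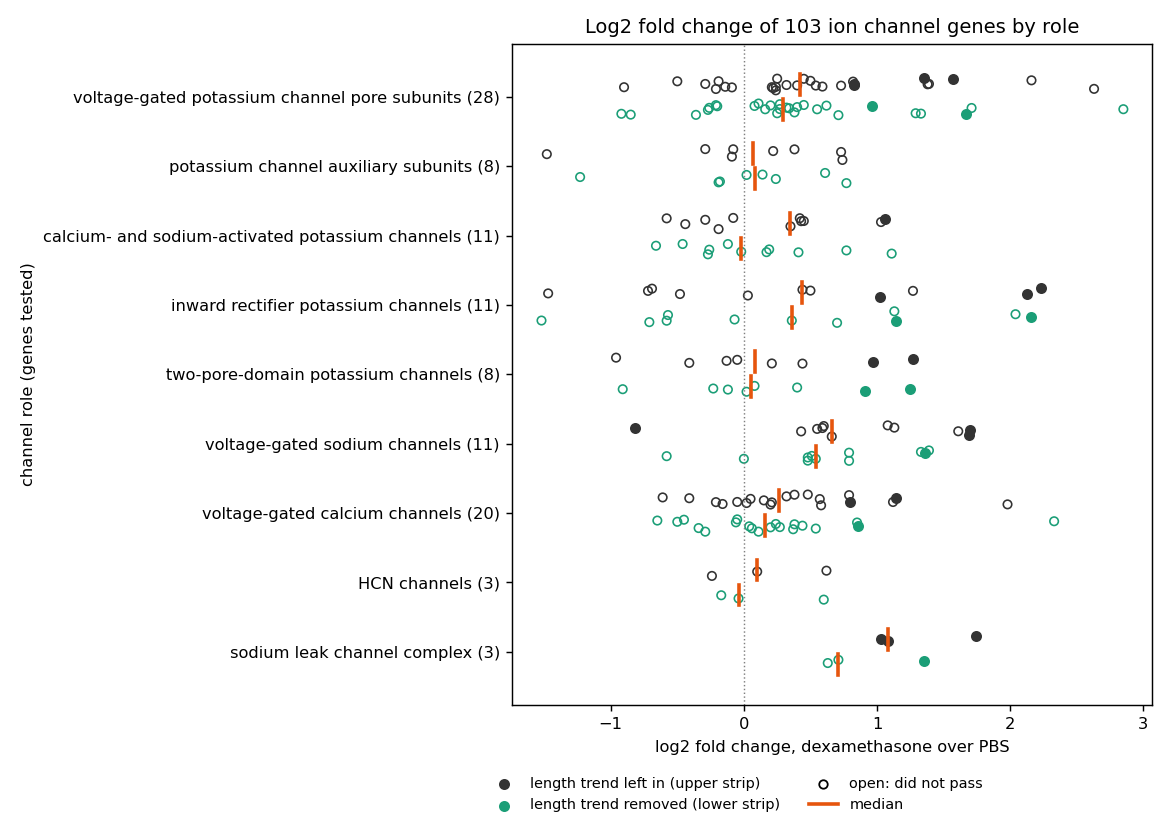
Log2 fold change, dexamethasone over PBS (x axis), of the 103 genes tested by channel role (y axis, number tested in brackets), with the length trend left in (black, upper strip) and removed (green, lower strip); filled points passed and orange bars are medians. The sodium leak complex has the highest median in both, 1.08 and 0.71 over 3 genes.

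Cell type markers were read beside these results. Over all 16027 genes tested edgeR had 2297 higher and 2106 lower at an unadjusted p under 0.05. Counts of markers at that cut are to be read beside these. Of 17 chromaffin markers edgeR called 0 (3 higher and 1 lower at an unadjusted p under 0.05; 2 higher by DESeq2 and 1 by limma-voom), with a median log2 fold change of 0.12, and 1 passed with the length trend removed, the granin gene Scg2. Their summed level, given above, overlapped between the groups, with PBS replicate 2 above dexamethasone replicate 2. The 7 neuronal markers summed to 89.9 and 76.7 CPM after dexamethasone, against 55.0 and 75.1 CPM after PBS. Of these 1 rose with the length trend left in and none with it removed: Elavl4, an RNA-binding protein gene of neurons, at 5.06 and 4.76 CPM after dexamethasone, against 1.96 and 2.40 CPM after PBS. Markers of Schwann and sustentacular cells summed to 37.3 and 35 CPM after dexamethasone, against 29.4 and 29.1 CPM after PBS, with none of 7 called by edgeR, DESeq2 or limma-voom and 2 higher at an unadjusted p under 0.05.

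Among the other lists, 2 of 8 zona glomerulosa markers fell (Agtr1b and Oxtr, both receptor genes), and the list summed to 1858 and 2032 CPM after dexamethasone, against 2309 and 2472 CPM after PBS. Of 6 zona fasciculata markers 2 fell (Akr1b7 and Mrap), of 7 markers of capsule and stroma 1 fell (Rspo3), and of 5 red blood cell markers 3 fell. Over all genes tested 1.37% were called lower and 3.26% higher, and 1.27% and 2.07% with the length trend removed. Red blood cell markers summed to 146 and 137 CPM after dexamethasone, against 226 and 394 CPM after PBS. Of 6 macrophage and leukocyte markers tested 2 rose (Mrc1 and Cd163), and the list summed to 162 and 163 CPM after dexamethasone, against 115 and 117 CPM after PBS. EdgeR called 0 of 7 smooth muscle and pericyte markers (1 higher at an unadjusted p under 0.05 and by DESeq2, 0 by limma-voom), which summed to 243 and 227 CPM after dexamethasone, against 199 and 215 CPM after PBS. It called 0 of 7 endothelial and 0 of 6 adipocyte markers as well (1 endothelial marker higher, and 1 adipocyte marker each way, at an unadjusted p under 0.05; 0 by DESeq2 and limma-voom). With the length trend removed Agtr1b, Oxtr, Akr1b7 and Mrc1 still passed, while Mrap, Rspo3, Cd163 and the 3 red blood cell markers did not (edgeR adjusted p of 0.0533 to 0.12); Srd5a2 of the fasciculata list (higher) and Col1a1 of the stroma list (lower) passed in that fit alone. The part of these cells in the change of the channel genes was not tested.

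Other genes of ion transport were taken from 4 further lists. The counts of these lists are to be read beside all genes tested. Of those, 3.26% were called higher, and 2.07% with the length trend removed. Of 19 TRP and chloride channel genes tested 1 rose, Trpc5, the gene of a receptor-operated cation channel, at 3.65 and 3.45 CPM in the dexamethasone libraries, against 0.678 and 0.192 CPM in the PBS libraries (2.96 ± 0.48; edgeR adjusted p = 0.0144; 2.89 with the length trend removed, where it passed). Of 10 genes of store calcium channels and their sensors 1 rose, the ryanodine receptor gene Ryr2, at 25.7 and 19.6 CPM after dexamethasone, against 6.36 and 10.6 CPM after PBS; it did not pass with the length trend removed (1.42 and 0.83 in the 2 fits). Of 15 pumps and exchangers 1 rose, the calcium pump gene Atp2b2 (0.98, and 0.62 with the length trend removed, where it did not pass). Of 12 accessory genes of sodium, potassium and leak channels edgeR called 0. At an unadjusted p under 0.05 edgeR had 3 higher, where 2297 of all 16027 genes tested were. DESeq2 called 1 higher and limma-voom 0. Median log2 fold changes of these lists were 0.30, 0.39, 0.12 and 0.37, and 0.02, 0.10, 0.04 and 0.08 with the length trend removed.

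How firmly each call stood differed between the 18 genes. Unc80, Scn3a, Kcna5, Kcnk2 and Kcnk6 passed under all 14 alternatives planned, and 9 of the 18, these 5 with Kcnq3, Cacna1b, Nalcn and Unc79, passed without each library in turn. Those fits without 1 library left the length trend in. With it removed as well, log2 fold changes ran over 1.29 to 1.42 for Unc80 and 1.33 to 1.39 for Scn3a. They were 1.43 to 1.93 for Kcna5, 0.78 to 1.03 for Kcnk2 and 1.06 to 1.48 for Kcnk6. For Kcnq3, Cacna1b, Nalcn and Unc79 these were 0.78 to 1.15, 0.84 to 0.88, 0.45 to 0.82 and 0.48 to 0.91. The numbers called in that setting are given above. Exons of another gene overlapped those of Kcnk2, Kcnj6, Cacna1d, Scn9a and Unc79, by 0.589% to 12.2% of their exon bases.

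**Figure D5:**
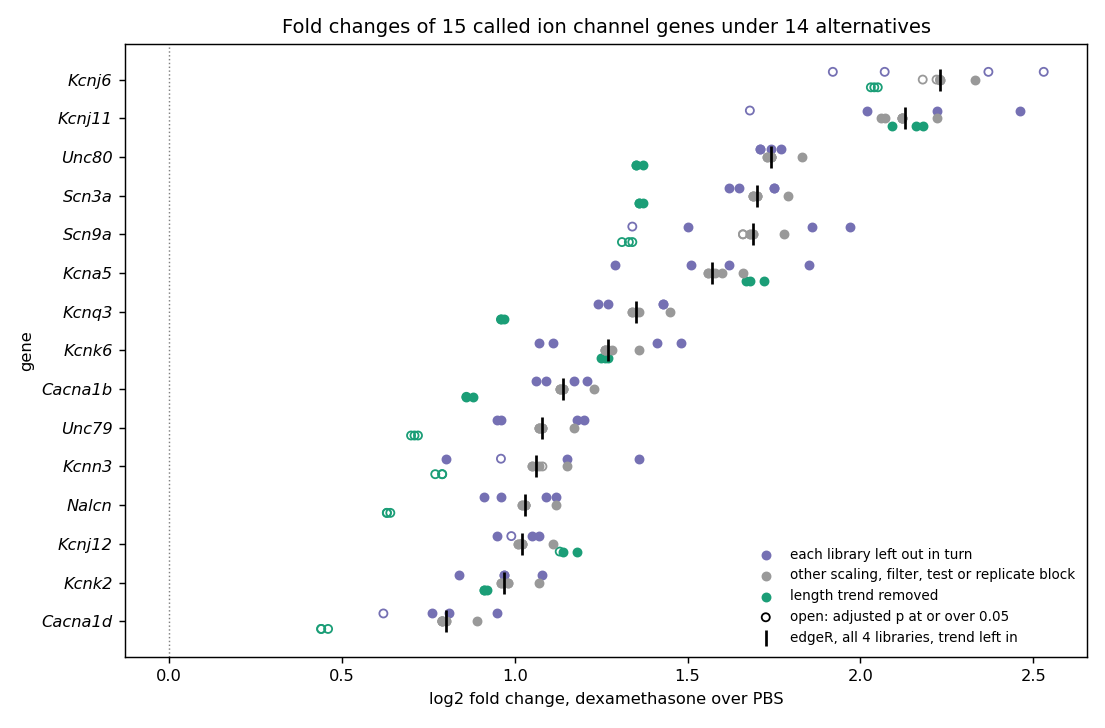
Log2 fold change, dexamethasone over PBS (x axis), of 15 of the 18 called ion channel genes (y axis) under 14 alternatives: each library left out (purple), other scaling, filter, test or replicate block (grey) and length trend removed (green), with black bars for the test on all 4 libraries; open points did not pass. Kcnj6 has 13 alternatives, since DESeq2 gave it no adjusted p; all points of each gene lie on the same side of 0, and the long genes such as Unc80, Unc79, Nalcn and Cacna1d shift left with the trend removed.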

How the data were processed

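The deposited table holds raw counts per gene for 54532 genes with their position and length, 1 column per library. The submitters' processing notes name STAR 2.5, HTSeq 0.6.1 and CASAVA 1.8, and the build mm10 (GRCm38). Settings, and the use of strand in counting, are not given in the sources. The columns' letters D and S were read as dexamethasone and the saline vehicle labelled PBS. Totals were 25968405 and 26733834 counts for dexamethasone and 26948588 and 21904510 for PBS; replicates of a group differed beyond sampling noise (chi-square per degree of freedom 17.3 and 23).

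Genes were filtered with filterByExpr (minimum count 10), which left 16027, scaled by TMM and tested with edgeR 4.0.16 (quasi-likelihood, biological coefficient of variation 0.149, 2 residual degrees of freedom) in R 4.3.3, with Benjamini-Hochberg adjustment over all genes. SE is the absolute log2 fold change over the root of F, and log2 CPM used a prior count of 2. For the length control, the linear trend of log2 CPM on log2 gene length in each library entered as an offset. Alternatives used DESeq2 1.42.0, limma 3.58.1 (voom), other scaling, filters and length curves, a replicate block, and each library left out. With 1 library left in a group, that library is assumed to vary like the others. Scripts were checked on simulated data. Named genes were those that passed in either fit, the 3 with the highest mean CPM in each role, and a fixed list of adrenal channel genes; from each list of other transport genes, those that passed. The genes, roles and lists were chosen with earlier results of these data known. Some genes that the naming rule gives are not reported here; they stay in all counts, medians and fits.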

Additional observations from a re-analysis of the deposited data

How the results depend on the processing

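The median log2 fold change of the channel genes was above 0 under all alternatives run, and no call of a named gene changed sign. Counts of channel genes higher and lower, beside 17 and 1, with those of all genes, beside 523 and 219, moved as follows. Library totals gave 22 and 0 among 893 and 180 (median 0.51). No filter gave 28 and 3 of 135 channel genes with a value, among 1384 and 1329. The DESeq2 test gave 20 and 3 of 86 with a value, among 913 and 868. By limma-voom there were 15 and 0 of 103, among 507 and 215. Fits without 1 library had values for 110 to 112 channel genes, so their counts are not over the same genes. With the length trend removed the counts were 9 and 0 among 331 and 204 (median 0.25), and with a curved trend 9 and 0 among 314 and 131 (median 0.27). Replicate numbers are not stated to pair the pools, and deviations of same-numbered libraries correlated at −0.0266 over all genes and 0.148 over channel genes. With the replicate block, which leaves 1 residual degree of freedom, 10 and 0 channel genes were called among 244 and 89, and with the block and the length trend removed 6 and 0 among 148 and 80 (median 0.26). Leaving out 1 library gave 9 to 24 channel genes higher and 0 to 4 lower, among 337 to 1595 and 147 to 1747 genes, and medians of 0.28 to 0.46. Leaving out 1 library with the length trend removed, chosen after seeing the data, gave 1 to 17 higher and 0 to 3 lower, among 54 to 991 and 26 to 1233 genes, and medians of 0.19 to 0.33. In that setting without dexamethasone replicate 1 these were 2 and 0 (54 and 26, median 0.33), without dexamethasone replicate 2 they were 1 and 0 (59 and 34, median 0.19), without PBS replicate 1 they were 17 and 3 (991 and 1233, median 0.24), and without PBS replicate 2 they were 14 and 0 (median 0.31). The cause of these moves was not tested. Among values of named genes under alternatives, 567 kept direction and side of the threshold, 105 lost the call, 24 gained one, and 40 changed sign without a call. At these depths genes with few counts, such as Scn1a and Kcnj5, have wide errors.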
